A study of Mus musculus with 6 samples.

Results

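Hepatocyte identity transcription factors are DNA-binding proteins that are enriched in liver and keep the hepatocyte gene program running. A total of 9 of them were read from the deposited count table, of 32212 rows in all, by an exact match of the gene symbol: the nuclear receptors Hnf4a and Nr5a2, the forkhead factors Foxa1, Foxa2 and Foxa3, the CCAAT/enhancer-binding proteins Cebpa and Cebpb, and the homeodomain factors Onecut1 and Prox1. Levels were measured by sequencing of polyadenylated RNA from the livers of 6 mice, 3 WT and 3 CgA-KO, all of them male C57BL/6 at 2 yr of age on a normal chow diet. CgA is chromogranin A, the prohormone that Chga encodes, and one library was made from each liver. Both genotypes thus shared strain, sex, age and diet, and no treatment is named. The labels do not say how the allele was made, and no rescue or cell type-specific deletion is among the libraries, so loss of CgA in liver and loss elsewhere in the body cannot be told apart.

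In the adult liver several of these factors form a network, in which they bind their own regulatory regions and those of one another. FOXA proteins open compacted chromatin and let further factors bind, HNF4A occupies regulatory regions of a large share of hepatocyte genes, and the C/EBP proteins drive genes of glucose, lipid and acute-phase metabolism. NR5A2 acts on bile acid and cholesterol genes, ONECUT1 has roles in hepatocyte and bile duct development, and PROX1 restrains lipid and bile acid genes in hepatocytes and specifies lymphatic endothelium.

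Library totals ranged from 10558616 to 31087453 counts. Chga itself had 0 counts in all 6 libraries, where a count of 0 allows from 0.0965 to 0.284 CPM (the count scaled to the library total) for counting error only, so it could not check the genotype labels. The tissue label was checked with 15 hepatocyte markers, which held between 8.13% and 12.8% of all counts in every library. Albumin (Alb) alone was between 38146 and 66178 CPM in WT livers and between 30668 and 55918 CPM in those of CgA-KO. None of these 15 markers was called between the genotypes by edgeR (quasi-likelihood test, Benjamini-Hochberg adjusted), 1 had an unadjusted p-value under 0.05, and DESeq2 called 1, the thyroid hormone carrier Ttr. Of the markers' log2 fold changes in edgeR, 12 were negative and 3 positive, with a median of -0.20. Markers of other liver and blood cells moved with genotype. Of 12 Kupffer cell and macrophage markers, 11 were higher in CgA-KO, and their summed level ranged from 173 to 480 CPM in WT and from 1907 to 2403 CPM in CgA-KO. Neutrophil markers summed to between 8.22 and 14.2 CPM in WT and to 65.9, 347 and 50.6 CPM in CgA-KO replicates 1, 2 and 3.

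All 9 factors passed the filter on low counts. Of these, 2 were lower in CgA-KO livers, the pioneer factors Foxa1 (2.35-fold) and Foxa3 (1.65-fold), and 0 were higher. The other 7, among them Hnf4a and Foxa2, did not pass the test. By the same test, 12.4% of the 13867 genes tested were called in either direction, 3.84% as lower and 8.6% as higher in CgA-KO. At an unadjusted p under 0.05 there were 4 of the 9, against 29.1% of all genes, and DESeq2 called the same number, 4, all lower (Foxa1, Foxa3, Cebpa and Onecut1), against 17.2%. The groups did not overlap for 2 of the 9 factors, again Foxa1 and Foxa3, against 33.6% of all genes tested. Of the 9 log2 fold changes, 7 were negative and 2 positive, with a median of -0.24 against -0.01 over all genes. With library size alone 4 were negative and 5 positive, with a median of 0.05 against 0.26 over all genes. With libraries scaled to the summed hepatocyte markers 5 were negative and 4 positive, with a median of -0.05 against 0.17. The 15 hepatocyte markers themselves had medians of -0.20, 0.10 and -0.05 in these fits, in the same order. In whole-liver RNA, fewer cells of a type and less RNA per cell cannot be told apart.

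Levels are CPM after TMM scaling, a trimmed mean of log ratios between libraries. Every p-value given as adjusted is from edgeR's quasi-likelihood test, unless DESeq2 or the permutation test of ratios is named. The adjustment is over all genes tested in the fit, 13867 in the main fit and from 12268 to 19693 in the others. An exact two-sided permutation test of 3 libraries against 3 cannot give a p-value under 0.1. The scaling matters for the sign of small differences and for the calls of larger ones, such as that of Foxa1. Library size alone and hepatocyte marker scaling, the latter by the summed counts of the 15 markers, were therefore run beside TMM.

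**Figure D1:**
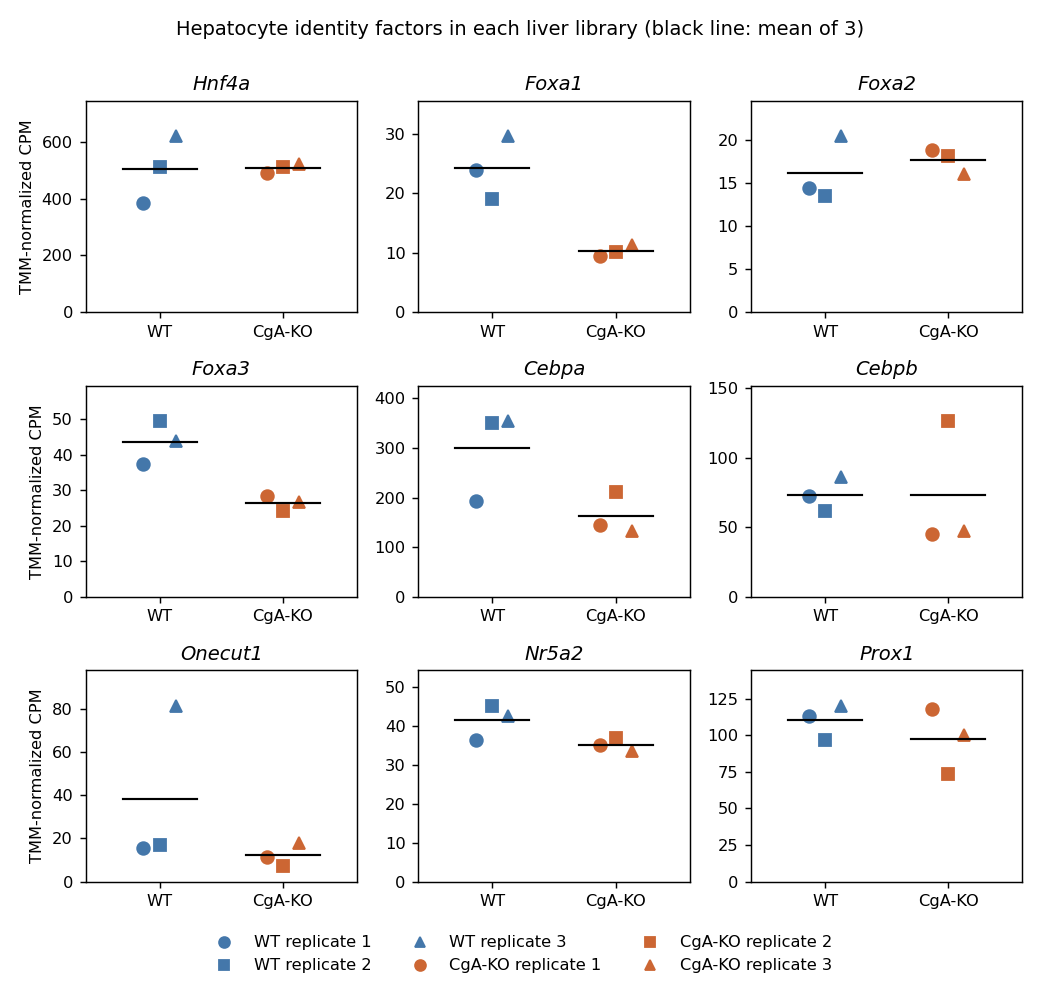
TMM-normalized CPM of the 9 factors in each of 3 WT (blue) and 3 CgA-KO (orange) livers, with one panel per gene, a linear axis from 0, a marker shape per replicate number and a black line at the mean of 3. The CgA-KO points lie under all WT points only for Foxa1 and Foxa3, while single libraries stand high for Onecut1 (WT replicate 3, 81.5 CPM) and Cebpb (CgA-KO replicate 2, 127 CPM).

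The FOXA factors were examined first, since they come before the others in the order of liver gene activation. Foxa1 is on chromosome 12 of GRCm38 (57540628 to 57546916, minus strand), 45.0 Mb from Chga on the same chromosome. It was measured at 24.0, 19.0 and 29.6 CPM in WT replicates 1, 2 and 3 and at 9.42, 10.1 and 11.3 CPM in CgA-KO replicates 1, 2 and 3. Every CgA-KO liver was thus lower than every WT liver, and the CgA-KO libraries lay closer together than the WT libraries. The mean fell from 24.2 ± 5.34 CPM to 10.3 ± 0.968 CPM (SD, n = 3), a log2 fold change of -1.23 ± 0.213 (standard error) with an adjusted p of 0.0104 in edgeR and of 2.94e-05 in DESeq2. The exact permutation test gave p = 0.1, the smallest it allows. The direction held in all fits, but the call was lost without WT replicate 3 (-1.06, adjusted p = 0.0549), CgA-KO replicate 1 (-1.14, adjusted p = 0.0504), with library size alone (-0.98, adjusted p = 0.0570) and with hepatocyte marker scaling (-1.07, adjusted p = 0.123). Relative to the median of all genes, the difference was -1.22 with TMM, -1.25 with library size alone and -1.24 with hepatocyte marker scaling.

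Foxa3, the paralog that acts on glucose genes during fasting, is on chromosome 7 (19013284 to 19023538, minus strand). Its levels were 37.5, 49.6 and 43.9 CPM in WT and 28.5, 24.3 and 26.8 CPM in CgA-KO replicates 1, 2 and 3. The groups did not overlap, with a gap between CgA-KO replicate 1 and WT replicate 1. The mean fell from 43.7 ± 6.02 CPM to 26.5 ± 2.12 CPM (SD, n = 3), a log2 fold change of -0.72 ± 0.173 (standard error) with an adjusted p of 0.0289 in edgeR and 0.00665 in DESeq2, and p = 0.1 in the exact permutation test. This call was less firm than that of Foxa1, and it held in 1 of the 6 fits that each left out a library, the fit without WT replicate 1 (adjusted p = 0.0252). The adjusted p was 0.0745 and 0.116 when WT replicates 2 and 3 were left out in turn, and 0.0819, 0.0807 and 0.0806 for CgA-KO replicates 1, 2 and 3, with log2 fold changes between -0.78 and -0.62 over the 6 fits. It was also lost with library size alone (-0.43, adjusted p = 0.126) and with hepatocyte marker scaling (-0.50, adjusted p = 0.439), where the differences from the median of all genes were -0.69 and -0.67 beside -0.71 with TMM.

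Foxa2, the paralog that is required for definitive endoderm and acts on bile acid and fasting genes in adult liver, is on chromosome 2 (148042877 to 148046969, minus strand). It was measured at 14.4, 13.5 and 20.5 CPM in WT and at 18.8, 18.1 and 16.0 CPM in CgA-KO replicates 1, 2 and 3. All CgA-KO values lay between the second and the highest WT value. The log2 fold change of Foxa2 was 0.13 ± 0.210 (adjusted p = 0.739 in edgeR, 0.847 in DESeq2), and it ranged from 0.01 to 0.33 over the fits without one library.

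Little of the transcript sequence of the 3 paralogs occurs in any other gene, so reads of one could be taken for another only in small part. Of all stretches of 31 bases in the annotated transcripts, 0.243% for Foxa1, 0.338% for Foxa2 and 0.199% for Foxa3 also occur in transcripts of another gene. The other gene found most often was Foxa2 for Foxa1, Foxa1 for Foxa2 and Pcnp, not a FOXA gene, for Foxa3. Since every library holds all 3 paralogs, their ratio within a library needs no scaling. The log2 ratio of Foxa1 to Foxa2 was 0.73, 0.49 and 0.53 in WT and -0.99, -0.83 and -0.49 in CgA-KO replicates 1, 2 and 3. Foxa1 counts thus exceeded Foxa2 counts in each WT liver and lay under them in each CgA-KO liver, a 2.56-fold lower ratio (-1.35 on the log2 scale). The log2 ratio of Foxa3 to Foxa2 was 1.37, 1.87 and 1.10 in WT and 0.60, 0.42 and 0.74 in CgA-KO. It was 1.81-fold lower in CgA-KO (-0.86), again with no overlap, while the ratio of Foxa1 to Foxa3 overlapped (-0.50, exact permutation p = 0.3). For both ratios to Foxa2, the exact permutation test gave its smallest p of 0.1, and 0.3 after adjustment over the 9 ratios computed. Leaving out any one library kept the first between -1.49 and -1.25 and the second between -1.03 and -0.65.

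**Figure D2:**
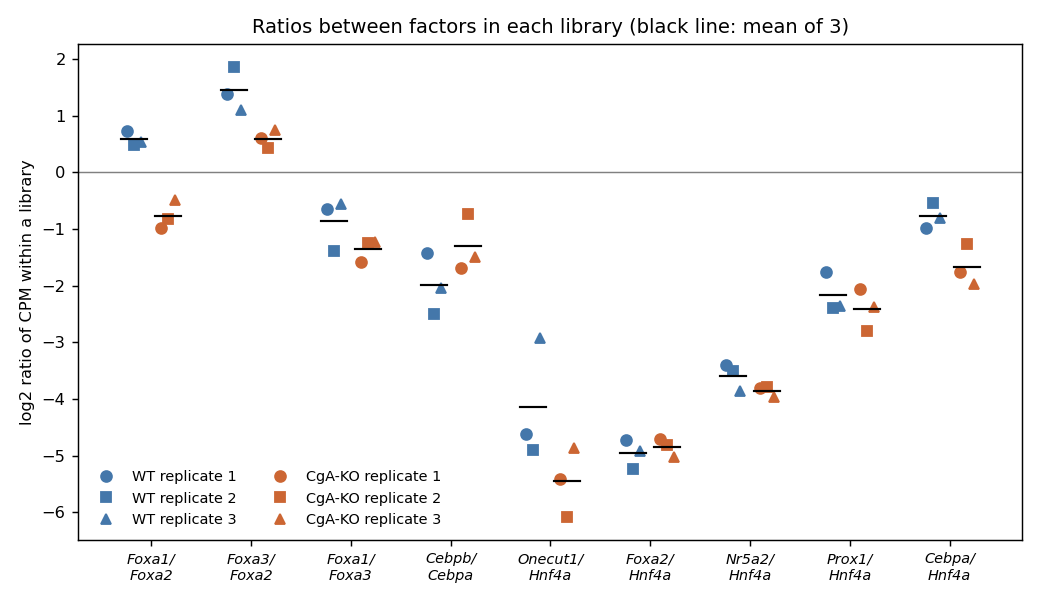
Log2 ratio of CPM between pairs of factors within each liver library, for 9 pairs, with WT in blue, CgA-KO in orange, a marker shape per replicate number and a black line at the mean of 3. The groups do not overlap for Foxa1/Foxa2 (-1.35), Foxa3/Foxa2 (-0.86) and Cebpa/Hnf4a (-0.89), and they overlap for the other 6 pairs.

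The sequences before the transcription starts of the FOXA genes and of Hnf4a are shown because the first pair of genes fell and the others did not pass the test. They are RefSeq promoter windows of GRCm38.p6, cut where an annotated exon covers them, and capitals mark the motif that was found. For Foxa1 the window is chr12:57546122-57546361 on the minus strand, before a start that lies inside the annotated gene, with the 10 bases nearest to the start left out. The capitals, 141 to 135 bases before the start, are the forkhead word TGTTTAC, the word that FOXA proteins themselves prefer, read on the other strand.
Foxa1: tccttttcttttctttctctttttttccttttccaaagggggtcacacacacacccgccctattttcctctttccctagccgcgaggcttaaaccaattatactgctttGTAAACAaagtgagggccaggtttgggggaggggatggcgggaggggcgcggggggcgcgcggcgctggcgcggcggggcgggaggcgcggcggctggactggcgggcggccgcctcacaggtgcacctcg
For Foxa3 the window is chr7:19023540-19023789 on the minus strand, and none of the words searched is in it.
Foxa3: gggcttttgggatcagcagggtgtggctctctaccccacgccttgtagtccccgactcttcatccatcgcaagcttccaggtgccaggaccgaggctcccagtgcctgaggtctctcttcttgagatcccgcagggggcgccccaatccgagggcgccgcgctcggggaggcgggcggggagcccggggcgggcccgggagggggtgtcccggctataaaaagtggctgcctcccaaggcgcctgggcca
For Foxa2 the window is that of the most upstream of 3 starts, chr2:148046970-148047219 on the minus strand. The windows of the other Foxa2 starts, not shown, held none of the words searched. The capitals, 214 to 208 bases before the start, are the Onecut word ATCAATA on the other strand.
Foxa2: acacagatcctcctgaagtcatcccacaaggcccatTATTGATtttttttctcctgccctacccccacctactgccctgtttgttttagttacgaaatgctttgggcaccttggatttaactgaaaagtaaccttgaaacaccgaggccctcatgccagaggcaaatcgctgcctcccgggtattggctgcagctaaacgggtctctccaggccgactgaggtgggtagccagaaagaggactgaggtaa
For Hnf4a the window is that of the downstream start, chr2:163546943-163547154 on the plus strand. The capitals, 80 to 69 bases before the start, are the HNF1 word (GTTAAT and TTAA with 2 free bases between them) on the other strand.
Hnf4a: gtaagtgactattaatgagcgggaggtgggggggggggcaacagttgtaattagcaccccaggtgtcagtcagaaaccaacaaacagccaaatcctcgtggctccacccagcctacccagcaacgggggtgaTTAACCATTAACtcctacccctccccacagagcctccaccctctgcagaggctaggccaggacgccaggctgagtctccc
A total of 6 words were searched on both strands in the 250 bases before each start, in 14 windows of the 9 factors and in all 32851 RefSeq windows. The forkhead word was in 3.17% of all windows, the Onecut word in 1.86% and the HNF1 word in 0.131%. The C/EBP word TTGCNNAA (9.56% of all windows) was in a window of Nr5a2, and the Onecut word was also in the window of the upstream Hnf4a start. The HNF4A word CAAAGTCCA (0.384%) and the NR5A2 word CAAGGTCA (1.33%) were in no window of the 9 factors. No window of the 9 factors held more than 1 match, so none overlapped, and a match describes letters, not a bound site.

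Hnf4a, the nuclear receptor at the centre of the hepatocyte network, is on chromosome 2 (163506808 to 163572910, plus strand). Its levels were 383, 512 and 621 CPM in WT and 491, 509.96 and 522 CPM in CgA-KO replicates 1, 2 and 3. The CgA-KO livers lay within the WT range, close to its middle. Means were 505 ± 119 CPM for WT and 508 ± 15.8 CPM for CgA-KO (SD, n = 3), with a log2 fold change of 0.01 ± 0.241 and an adjusted p of 0.990 in edgeR and 0.980 in DESeq2. The sign of so small a difference turned with DESeq2 (-0.01) and without WT replicate 1 (-0.13).

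The antisense row Hnf4aos was named beside Hnf4a, since strand-blind counting could mix them where exons overlap. Hnf4aos (chromosome 2, 163493807 to 163541720, minus strand) had 47, 226 and 183 counts in WT and 44, 60 and 60 counts in CgA-KO, or 4.21, 9.61 and 7.75 CPM against 2.04, 1.90 and 2.69 CPM. All CgA-KO libraries lay under all WT libraries. The log2 fold change was -1.71 ± 0.355 with an adjusted p of 0.0176 in edgeR and 0.000276 in DESeq2. The row is of low count, and its call was lost without WT replicate 2, WT replicate 3, CgA-KO replicate 1 or CgA-KO replicate 2 (adjusted p up to 0.0823) and with hepatocyte marker scaling. Of its 954 exon bases, 0 overlap exons of Hnf4a.

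Nr5a2, also called LRH-1, is on chromosome 1 (136842571 to 136960448, minus strand). It was measured at 36.3, 45.1 and 42.6 CPM in WT and at 35.0, 36.8 and 33.4 CPM in CgA-KO replicates 1, 2 and 3. The groups met between WT replicate 1 and CgA-KO replicate 2, and the other WT livers were higher than all CgA-KO livers. The log2 fold change of -0.24 ± 0.162 (adjusted p = 0.371 in edgeR, 0.424 in DESeq2) turned to 0.05 with library size alone, where the median of all genes was 0.26.

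Cebpa, which keeps hepatocytes quiescent and drives glycogen, gluconeogenic and urea cycle genes, is on chromosome 7 (35119293 to 35121928, plus strand). Its levels were 194, 351 and 355 CPM in WT and 146, 211 and 132 CPM in CgA-KO replicates 1, 2 and 3. Only CgA-KO replicate 2 exceeded a WT liver, WT replicate 1. Means were 299.8 ± 91.8 CPM for WT and 163 ± 42.3 CPM for CgA-KO (SD, n = 3), 1.84-fold apart, a log2 fold change of -0.88 ± 0.299. The adjusted p was 0.0889 in edgeR, so the gene was not called, and 0.0231 in DESeq2, which did call it. The exact permutation test gave p = 0.2. WT replicate 1 decided the edgeR call, since without it the log2 fold change was -1.08 with an adjusted p of 0.0269. Set against Hnf4a in the same library, the log2 ratio of Cebpa was -0.98, -0.54 and -0.81 in WT and -1.75, -1.27 and -1.98 in CgA-KO, with no overlap. This ratio was 1.85-fold lower in CgA-KO (-0.89, exact permutation p = 0.1, adjusted 0.3 over the 9 ratios), and between -1.09 and -0.73 without any one library.

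Cebpb, the C/EBP protein that rises in the acute-phase response and is also made by myeloid cells, is on chromosome 2 (167688915 to 167690418, plus strand). Its levels were 72.5, 61.7 and 86.2 CPM in WT and 45.3, 127 and 47.1 CPM in CgA-KO replicates 1, 2 and 3. CgA-KO replicates 1 and 3 lay under every WT liver and CgA-KO replicate 2 over every WT liver. The log2 fold change was therefore near 0 (-0.01 ± 0.385, adjusted p = 0.991 in edgeR, 0.976 in DESeq2), and it was -0.64 (adjusted p = 0.117) without CgA-KO replicate 2. The sign turned with library size alone (0.24), with upper-quartile factors (0.05) and with hepatocyte marker scaling (0.02). CgA-KO replicate 2 was also the library with the highest neutrophil markers, with a sum of 347 CPM over the 10 genes of the list against at most 65.9 CPM in the other 5 libraries. Of the 10, 8 were highest in this library, among them the granule protein gene Ngp at 92.1 CPM and myeloperoxidase (Mpo) at 66.8 CPM. The receptor genes Csf3r (32.6 CPM in CgA-KO replicate 1, 10.3 CPM in CgA-KO replicate 2) and Cxcr2 (3.95 and 2.38 CPM) were instead highest in CgA-KO replicate 1. CgA-KO replicate 2 was also highest for the summed bile duct (94.7 CPM), T and B cell (111 CPM) and stellate cell (636 CPM) markers. Kupffer cell and endothelial markers summed highest in CgA-KO replicate 1 (2403 and 218 CPM). The part of neutrophils or of any of these cells in the Cebpb level was not tested. The relative Cebpd, another acute-phase factor, was likewise highest in CgA-KO replicate 2, at 17.2 CPM against 5.91 to 10.6 CPM elsewhere. A share of 19.6% of the 31-base stretches of Cebpb occurs in transcripts of other genes. The one found most often was Tmem189, whose own levels were 23.8, 24.5 and 21.1 CPM in WT and 24.6, 26.6 and 24.1 CPM in CgA-KO.

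Onecut1, also called HNF6, is on chromosome 9 (74861921 to 74891781, plus strand). Its levels were 15.6, 17.1 and 81.5 CPM in WT and 11.5, 7.42 and 17.8 CPM in CgA-KO replicates 1, 2 and 3. WT replicate 3 stood far over the other 5 libraries, and CgA-KO replicate 3 was higher than WT replicates 1 and 2. The log2 fold change of -1.65 ± 0.624 was the most negative of the 9 factors, with an adjusted p of 0.119 in edgeR and 0.0267 in DESeq2. Without WT replicate 3 it was -0.43 (adjusted p = 0.535), so the size rests on that liver. Of the 31-base stretches of Onecut1, 53.0% also occur in transcripts of other genes, so reads may be divided between them. The other gene found most often was the overlapping Gm20649, not analysed here. The ratio of Onecut1 to Hnf4a was likewise -1.31 (exact permutation p = 0.2) and -0.70 without WT replicate 3.

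Prox1 is on chromosome 1 (190118035 to 190170714, minus strand). Its levels were 113, 97.0 and 120.3 CPM in WT and 118, 73.6 and 100.4 CPM in CgA-KO replicates 1, 2 and 3. The groups overlapped, with CgA-KO replicate 2 lowest of all. The log2 fold change was -0.18 ± 0.222 (adjusted p = 0.637 in edgeR, 0.652 in DESeq2), and its sign turned with library size alone (0.07), with hepatocyte marker scaling (0.01) and without CgA-KO replicate 2 (0.02). Prox1 also marks lymphatic endothelium, and of 12 lymphatic and sinusoidal endothelial markers the lymphatic Pdpn, Ccl21a and Mmrn1 were at no more than 1.32, 0.381 and 1.84 CPM in any library, while the receptor Flt4 was at 7.49 to 13.6 CPM (adjusted p = 0.727). Of the 9 tested, 3 were higher, the hyaluronan receptor Lyve1 (log2 fold change 2.81, adjusted p = 0.00304), the vascular cadherin Cdh5 (1.92, adjusted p = 0.0153) and Reln (0.91, adjusted p = 0.0294), and 1 was lower, the sinusoidal lectin Clec4g (-1.11, adjusted p = 0.0135, not called with library size alone or hepatocyte marker scaling). The calls of Cdh5 (adjusted p up to 0.0954) and Reln (up to 0.140) were each lost without WT replicate 2, WT replicate 3, CgA-KO replicate 1 or CgA-KO replicate 2, and that of Reln with hepatocyte marker scaling (0.0800). The 12 markers summed to 121 to 147 CPM for WT and 148 to 218 CPM for CgA-KO, and their part in the Prox1 level was not tested. The antisense row Prox1os (log2 fold change 0.20, adjusted p = 0.708) overlaps Prox1 exons over 16.1% of its exon bases.

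**Figure D3:**
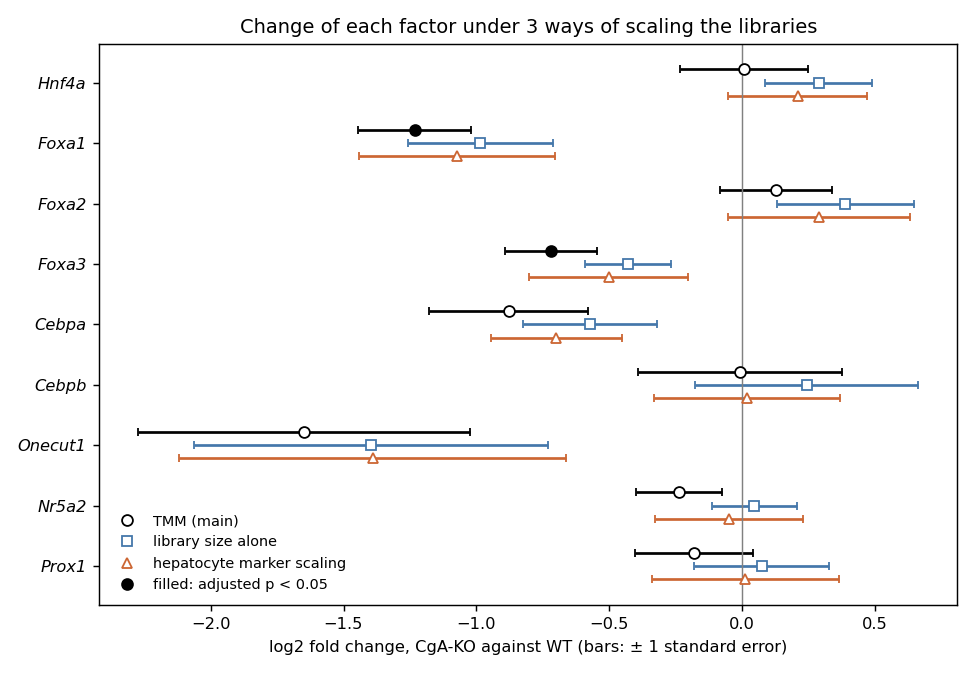
Log2 fold change of each factor, CgA-KO against WT, under 3 ways of scaling the libraries, with bars of 1 standard error and filled markers where the adjusted p is under 0.05. Foxa1 and Foxa3 are filled with TMM only, all 3 estimates of Foxa1, Foxa3, Cebpa and Onecut1 lie under 0, and those of Nr5a2, Prox1 and Cebpb lie near 0 on both sides of it.

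Levels of different genes were compared as TMM-normalized CPM per kilobase of annotated exon length. In WT livers Cebpa (113.7 ± 34.8 CPM per kb) and Hnf4a (104.7 ± 24.6) were highest and overlapped each other. They were followed, each without overlap with the one before, by Cebpb (48.9 ± 8.16), Foxa3 (21.4 ± 2.96) and Prox1 (13.1 ± 1.43). Onecut1 (9.26 ± 9.14), Foxa1 (7.28 ± 1.61), Nr5a2 (7.01 ± 0.773) and Foxa2 (6.81 ± 1.59) came last and overlapped (SD, n = 3 throughout). In CgA-KO livers Hnf4a (105.1 ± 3.26 CPM per kb) lay over Cebpa (61.9 ± 16.0) without overlap, and the latter overlapped Cebpb (48.5 ± 30.9). Foxa3 (13.03 ± 1.04) overlapped Prox1 (11.6 ± 2.65), and Foxa2 (7.44 ± 0.615), Nr5a2 (5.94 ± 0.291) and Foxa1 (3.10 ± 0.291) followed with no overlap from one to the next. Foxa1 overlapped Onecut1 (2.97 ± 1.27), the lowest. In rank, Foxa2 went from place 9 in WT to place 6 in CgA-KO. With the longest transcript in place of the exon union, the first and second places in WT changed to Hnf4a and Cebpa, and Nr5a2 moved over Foxa1.

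For the 3 factors with the smallest p-values, the tested genes whose levels went most alike over the 6 libraries were looked up, as a description. Foxa1 went with the coiled-coil gene Fam184a (Pearson's r = 0.997 on log2 CPM) and with the kinase gene Cdk5 (0.996). Foxa3 went with Anks4b (0.998), a scaffold of epithelial brush borders, and with Elovl6 (0.996), a fatty acid elongase. Cebpa went with Atp1b1 (0.997), a subunit of the sodium pump, and with Mfn1 (0.995), which fuses mitochondria. Each pair of genes has the highest and the next highest r of 13866 genes over the same 6 livers, which include the difference between genotypes. Of the 6 genes, Anks4b (log2 fold change -1.05, adjusted p = 0.0117) and Elovl6 (-1.01, adjusted p = 0.0179) fell in CgA-KO, and the other 4 did not pass the test. The call of Anks4b was lost without WT replicate 3 (adjusted p = 0.0568) and with hepatocyte marker scaling (adjusted p = 0.144). The call of Elovl6 was lost without WT replicate 3 (0.0753), CgA-KO replicate 1 (0.0542) or CgA-KO replicate 2 (0.0617) and with hepatocyte marker scaling (0.194, all adjusted p).

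The other transcription factors of the liver were set beside the 9. Of 21 other liver-enriched factors, 2 were lower and 0 higher, a called share of 9.52% against 12.4% of all genes. Their median log2 fold change was -0.28 (-0.01 with library size alone and -0.08 with hepatocyte marker scaling). Hhex, a homeodomain factor needed for liver and biliary development, was at 112, 117 and 121 CPM in WT and at 47.6, 48.0 and 62.0 CPM in CgA-KO. It fell by 1.15 on the log2 scale (adjusted p = 0.00812), in all 6 fits without one library and in every other setting but hepatocyte marker scaling. Nr2f2 (COUP-TFII), a nuclear receptor of several liver cell types, fell by 0.68 (adjusted p = 0.0251), a call kept only without WT replicate 2 among the fits that left out a library (adjusted p up to 0.119 in the others) and lost with library size alone (adjusted p = 0.223) and hepatocyte marker scaling (0.447). Rxra, the partner of many nuclear receptors, was not called (-0.23, adjusted p = 0.484, 0.05 with library size alone). Among 9 family relatives, 6 were tested and 1 fell, the myeloid factor Cebpe (-1.14, adjusted p = 0.0189, lost without WT replicate 3, CgA-KO replicate 1 or CgA-KO replicate 3, at up to 0.0915, and with library size alone, at 0.0978, or hepatocyte marker scaling, at 0.143). Onecut2 was at -0.57 (adjusted p = 0.120). Of 18 co-regulators, edgeR and DESeq2 each called 0, and 2 had an unadjusted p under 0.05, with a median of 0.07 (0.33 with library size alone). The most abundant, the Groucho-related corepressor Tle5, was at -0.55 (adjusted p = 0.245).

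Genes that textbook knowledge places under these factors were counted next. Called in either direction were 10% of the HNF4A, 18.2% of the FOXA, 7.69% of the C/EBP and 22.2% of the NR5A2 target genes tested. Of all genes tested, 12.4% were called. Each list's share in edgeR rests on 1 or 2 called genes. DESeq2 called 6 HNF4A, 3 FOXA, 1 C/EBP and 2 NR5A2 target genes, against 17.2% of all genes. The HNF4A target genes Otc, Ces2a, Ppara and Ttr were lower in DESeq2 (adjusted p = 0.0384, 0.0263, 0.0225 and 0.0488) but were not called by edgeR. Of 20 HNF4A target genes, 2 fell, Cyp7a1, the rate-limiting enzyme of bile acid synthesis, and Nr1i3, the xenobiotic receptor CAR, and the median was -0.31 (-0.01 with library size alone and -0.12 with hepatocyte marker scaling). Cyp7a1 was at 370.2, 377 and 442 CPM in WT and at 191, 81.0 and 114 CPM in CgA-KO (log2 fold change -1.63, adjusted p = 0.0149). Nr1i3 was close to the threshold (-1.22, adjusted p = 0.0496). Among 13 C/EBP target genes 1 fell, the liver glycogen synthase Gys2, from between 134 and 251 CPM in WT to between 57.5 and 80.4 CPM in CgA-KO (-1.62, adjusted p = 0.00985). Of 9 NR5A2 target genes tested, 2 fell and 0 rose. They were Cyp7a1 and the sterol transporter Abcg5 (-0.85, adjusted p = 0.0329). Of 11 FOXA target genes, 1 fell and 1 rose. The glucose transporter Slc2a2 fell (-0.80, adjusted p = 0.0327). Igfbp1, a fasting-responsive binding protein of insulin-like growth factors, rose from 19.1, 7.32 and 6.40 CPM in WT to 37.7, 158 and 91.7 CPM in CgA-KO (3.16, adjusted p = 0.0125).

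For all 4 target lists most members were not called, among them the highly expressed Alb (-0.23, adjusted p = 0.743), Apoa1 (-0.20, adjusted p = 0.758) and Ttr (-0.78, adjusted p = 0.166), and the FOXA and C/EBP medians were 0.07 and 0.08 (0.33 and 0.37 with library size alone, 0.16 and 0.21 with hepatocyte marker scaling). Leaving out WT replicate 3 ended the calls of Cyp7a1 (adjusted p = 0.0691), Igfbp1, Slc2a2, Abcg5 and Nr1i3. Without WT replicate 2 those of Igfbp1, Slc2a2 and Abcg5 were lost, without CgA-KO replicate 1 or 3 those of Slc2a2, Abcg5 and Nr1i3, and without WT replicate 1 or CgA-KO replicate 2 that of Nr1i3. The adjusted p of these genes without one library reached 0.103 for Igfbp1, 0.127 for Slc2a2, 0.141 for Abcg5 and 0.191 for Nr1i3. Gys2 was called in all 6 of these fits and in every other setting. With hepatocyte marker scaling Cyp7a1 (adjusted p = 0.0619), Nr1i3 (0.134), Slc2a2 (0.194) and Abcg5 (0.217) were not called. With library size alone the calls of Slc2a2 (adjusted p = 0.0867), Nr1i3 (0.137) and Abcg5 (0.141) were lost. With no filter on low counts those of Igfbp1 (adjusted p = 0.0805) and Slc2a2 (0.0525) were lost, and that of Nr1i3 was also lost with upper-quartile factors (0.0624) and with at least 10 counts in every library (0.0559). A target gene can stand under several factors, and Cyp7a1 and Alb are in more than one list. Target genes such as Alb, Ttr, Apob and Cps1 are also among the hepatocyte markers used for scaling. The medians with hepatocyte marker scaling are therefore not independent of that scaling.

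**Figure D4:**
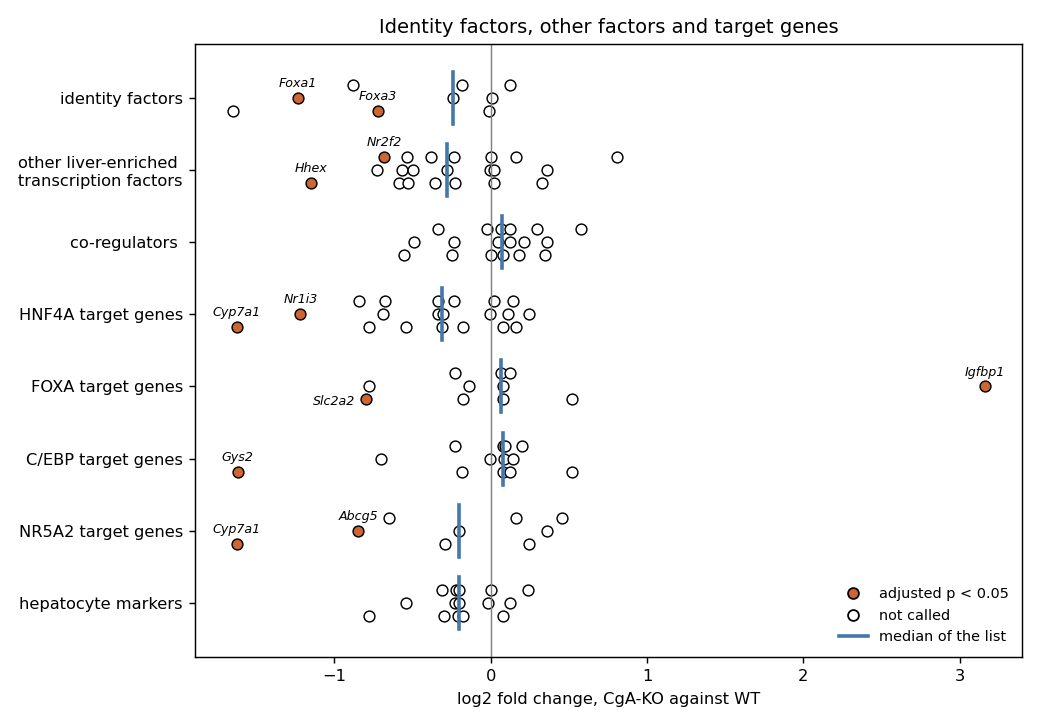
Log2 fold change, CgA-KO against WT, of every tested gene in 8 lists, with points spread in height for legibility, called genes filled and named, and a blue line at the median of each list. With TMM, medians lie between -0.31 (HNF4A target genes) and 0.08 (C/EBP target genes), and Igfbp1 at 3.16 is the only called gene on the higher side.

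Bile duct cells are known to express Onecut1, Foxa1 and Foxa2 as well. Markers of these cells summed to between 35.8 and 49.3 CPM in WT and between 34.8 and 94.7 CPM in CgA-KO. Of 8 tested, edgeR and DESeq2 each called 0, and 1 had an unadjusted p under 0.05. Of these log2 fold changes 6 were positive and 2 negative, with a median of 0.76 (0.99 with library size alone and 0.72 with hepatocyte marker scaling). The groups did not overlap for Sox9 (3.53 to 3.85 CPM in WT, 4.71 to 7.71 CPM in CgA-KO, log2 fold change 0.82, adjusted p = 0.0860). Nor did they for Krt7, which was lower (-0.97, adjusted p = 0.193). Krt19 was at no more than 1.08 CPM and Cftr at no more than 0.159 CPM in any library. T and B cell markers (4 of 10 higher) summed to 6.42 to 58.3 CPM in WT and 45.5 to 111 CPM in CgA-KO, and stellate cell markers (4 of 10 higher) to 234 to 286 CPM and 411 to 636 CPM. The part of the immune, endothelial and stellate markers in the levels of Foxa1, Foxa3 and Cebpa was not tested.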

How the data were processed

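Polyadenylated RNA from the livers of 6 mice, 3 WT and 3 CgA-KO, was sequenced in 6 libraries. The authors deposited one table of counts, whole numbers without normalization, of 32212 gene rows; 12519 are at 0 throughout and 78 repeat a symbol (none a factor described here). Per the study's methods and the submitters' processing notes, the authors quantified transcripts with Salmon 1.4.0 on GRCm38 (mm10). The step from transcripts to genes and the use of strand are not given in the sources used here. All 6 columns matched a sample by name, leaving 0.

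Counts were tested in edgeR 4.0.16 (R 4.3.3), with filterByExpr (minimum count 10, 13867 genes), TMM factors (0.756 to 1.12), robust quasi-likelihood fits and Benjamini-Hochberg adjustment over all genes. Calls have an adjusted p under 0.05. Standard errors were derived from the F statistic, as an approximation. Log2 CPM used a prior count of 2. Floors are 3 counts. Ratios of 2 factors were compared by exact permutation. Alternatives were DESeq2 1.42.0, other scalings, other filters, limma-voom (limma 3.58.1), a replicate block, a threshold of 0.01, a prior count of 0.5, the longest transcript and leaving out each library. Replicates of a genotype differed by more than sampling noise (chi-square per degree of freedom 29.9 to 190.3), so each was kept. Nothing but the mouse separates them in the labels, so p-values measure the spread between these livers.

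The factors and all gene lists were chosen with earlier results of these data known. An item of 1 list is not reported here and was left out of its counts. From other lists, called genes (up to 5 by p-value) and at most 2 not called, by mean CPM, were to be named. Cebpd and the single neutrophil markers, and Flt4, Pdpn, Ccl21a and Mmrn1, were chosen after their values were seen. The same holds for Otc, Ces2a, Ppara, Sox9 and Krt7. Coordinates are from GENCODE M21. The fits were tested on simulated data. Plots were made in matplotlib 3.10.9 (Python 3.11.15).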

Additional observations from a re-analysis of the deposited data

How the results depend on the processing

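With 3 livers a genotype, leaving out one library moved the number of genes called from 1726 to between 394 and 2126, and the number of factors called from 2 to between 0 and 3. DESeq2 called 2592 genes and 4 factors (Foxa1, Foxa3, Cebpa and Onecut1), library size alone 1493 genes and 0 factors (2 with an unadjusted p under 0.05), hepatocyte marker scaling 808 genes and 0 factors (2 unadjusted), and a threshold of 0.01 left 360 genes and 0 factors. Library size alone and hepatocyte marker scaling also moved the share of calls that were higher from 69.1% to 86.6% and 85.9%. The labels do not say whether livers of the same replicate number were paired. Deviations from the group means of WT and CgA-KO libraries of the same number correlated at 0.20, 0.01 and -0.07. Those of different numbers correlated at between -0.26 and 0.23. With 3 livers a genotype, these values cannot decide whether the livers were paired. A fit with the replicate block called 1498 genes and 1 factor, Foxa1, with Foxa3 at an adjusted p of 0.0663, and it ended the calls of Nr2f2 (0.0564), Abcg5 (0.0509) and Nr1i3 (0.0833). Upper-quartile factors, both other filters and limma-voom called 2 factors each.

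The sign of factors near 0 turned, in no case past the threshold. Hnf4a was at -0.014 with DESeq2 and between -0.13 and 0.18 without one library. Cebpb was at 0.24 with library size alone, 0.047 with upper-quartile factors, 0.017 with hepatocyte marker scaling, 0.0022 with no filter on low counts, 0.025 with at least 10 counts in every library, and between -0.64 and 0.27 without one library. Nr5a2 was at 0.046 and Prox1 at 0.073 with library size alone, and Prox1 at 0.012 with hepatocyte marker scaling and between -0.31 and 0.019 without one library. Of other genes, Rxra was at 0.047, Alb at 0.082 and Apoa1 at 0.11 with library size alone, and without one library Alb was between -0.40 and 0.0053 and Apoa1 between -0.52 and 0.046. The cause of these differences was not tested.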
